A study of Mus musculus with 2 samples.

Results

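Secretory epithelial cells fold and process their products in the endoplasmic reticulum (ER), and 39 mouse genes of this machinery were followed across cultured stomach and esophageal epithelium. The set was a fixed list of gene symbols, drawn up with earlier results of these data known, and all 39 were found among the 32285 genes of the matrix. The cells came from untreated mouse organoids, which are 3-dimensional epithelial cultures grown from tissue. Stomach corpus organoids grew in medium with WNT3A and R-spondin1 conditioned medium and gastrin. Esophageal organoids grew in medium with forskolin and without those additions. Both media contained EGF, noggin, FGF-10, N-acetylcysteine, nicotinamide, a TGF-β receptor kinase inhibitor and a ROCK inhibitor. Each group was 1 sample that combined cells of several mice, so tissue of origin and medium cannot be told apart, and no test between the groups was possible. The comparison used 46 columnar cells of the stomach sample and 702 squamous cells of the esophageal sample, each called from its keratin transcripts.

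The ER is the entry point for proteins that are secreted or placed in membranes. Nascent chains pass through the SEC61 channel, signal peptidase removes their leader, and chaperones, lectins and disulfide isomerases fold them. Misfolded chains are sent back to the cytosol for degradation, and escaped ER residents are fetched from the Golgi by KDEL receptors. When folding falls behind, the unfolded protein response (UPR) is switched on through IRE1, PERK and ATF6. IRE1 splices the mRNA of Xbp1 into the form that encodes an active transcription factor, PERK raises translation of ATF4 and through it the genes Ddit3, Trib3 and Chac1, and ATF6 is cut in the Golgi to free a transcription factor. In the stomach the pathway is best known from the mucous and zymogenic cells of the glands, whereas stratified squamous cells mainly build keratin and a cornified envelope.

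Several members carry the classical ER stress response element (ERSE) in front of their start site, and the element is shown because it marks the genes that ATF6 and XBP1 are known to act on. Promoters of 30 members, from 250 bases before to 50 bases after the RefSeq start on build GRCm38.p6, were searched on both strands. The ERSE, CCAAT and CCACG with 9 bases of any kind between them, was present in 7 of the 30 (23.3%) and in 37 of 27025 promoters of all genes (0.137%). The shorter ERSE-II, ATTGG and CCACG with 1 base between them, was present in 2 members (6.67%) and in 12 promoters of all genes (0.0444%). Each run below is written 5′ to 3′ on the strand of the gene, with the fixed letters of the element or of its reverse complement in capitals and 10 bases on either side.
Hspa5 (chr2:34772015-34772053, + strand): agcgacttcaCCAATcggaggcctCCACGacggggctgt
Hsp90b1 (chr10:86705523-86705666, − strand): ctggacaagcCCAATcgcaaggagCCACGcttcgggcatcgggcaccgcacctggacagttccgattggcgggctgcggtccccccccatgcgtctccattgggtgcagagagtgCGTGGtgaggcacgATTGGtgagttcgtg
Calr (chr8:84847065-84847103, − strand): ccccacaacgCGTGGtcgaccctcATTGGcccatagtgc
Canx (chr11:50325790-50325828, − strand): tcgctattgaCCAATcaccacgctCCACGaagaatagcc
Pdia6 (chr12:17266481-17266519, + strand): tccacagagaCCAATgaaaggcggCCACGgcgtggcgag
Dnajc3 (chr14:118937817-118937855, + strand): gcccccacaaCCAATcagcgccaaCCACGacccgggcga
Creld2 (chr15:88819510-88819548, + strand): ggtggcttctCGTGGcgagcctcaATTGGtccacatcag
Herpud1 (chr8:94386367-94386397, + strand): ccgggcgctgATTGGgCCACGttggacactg

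The first 7 runs hold ERSEs, of which Hsp90b1 has 2 on opposite strands, and the Herpud1 run holds an ERSE-II. In the 6 genes with 1 ERSE it began between 65 bases (Hspa5) and 162 bases (Calr) before the start, and the ERSE-II of Herpud1 began 52 bases before it. The UPRE letters TGACGTGG, which share CCACG with the ERSE on the opposite strand, were found in 1 member promoter (Kdelr3, 3.33%) against 0.714% of all promoters. The ATF4-type letters TGATGNAA were found in 2 (Herpud1 and Kdelr1, 6.67%) against 4.51% of all promoters. A match of letters is a description of the sequence and not a measured binding site.

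The libraries counted unique molecular identifiers (UMIs) at the 3′ ends of transcripts, and the 2 samples shared 0 cell barcodes. The 46 stomach columnar cells held 2469229 UMIs with a median of 59575.5 per cell, and the 702 esophageal squamous cells held 18456220 with a median of 23460. Mitochondrial UMIs had a median share of 7.47% in the stomach cells and 3.70% in the squamous cells. Krt8 and Krt18 together stood at 4307 counts per 1000000 UMIs of the group (CPM) in stomach columnar cells and 95.8 CPM in squamous cells, 2.22% of the stomach level. Krt5, Krt14, Krt6a and Krt13 summed to 195 CPM in stomach cells, 1.47% of the 13291 CPM in squamous cells. These keratins chose the cells, so their low level in the other group was partly set by that choice. They give a lowest gauge of the background, which may be higher for other genes. A member read in one group at about 2% of its level in the other cannot be told from this background. A tag was at least 90% of both sample tags in 8 of the 46 stomach cells and 168 of the 702 squamous cells. All 14 G2/M markers were at least 2-fold lower in the stomach cells, 272 CPM in stomach against 1717 CPM in squamous cells in sum. The part of cell cycle, depth and tag purity in the levels below was not tested. Defining markers of fibroblasts, smooth muscle, endothelium and red cells were at or near 0 in both groups, and of the 5 immune markers only Lyz2 was measured, at 65.2 CPM in stomach and 0.11 CPM in squamous cells.

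The ER genes as a set stood somewhat higher in stomach columnar cells, and a few members accounted for the large differences. The 39 genes summed to 7488 CPM in stomach columnar cells and 5471 CPM in esophageal squamous cells, a ratio of 1.37 (95% interval 1.35 to 1.39). This interval, like all intervals here, covers counting error only, since UMIs of 1 sample are not biological replicates. The level was higher in the stomach for 28 of 39 members, and for 6582 of all 12717 genes with at least 10 UMIs. The median log2 fold was 0.36 for the members against 0.04 over those genes. At least 2-fold higher were 7 members (17.9%), Xbp1, Creb3l1, Dnajb9, P4hb, Agr2, Sec61a1 and Sec11c, which is close to the 18.7% of all genes. At least 2-fold lower was 1 member (2.56%), Ddit3, against 14.8% of all genes. The remaining 31 lay within 2-fold. With scaling by TMM, which lowers every log2 fold by 0.19, 5 members were at least 2-fold higher and 2, Ddit3 and Atf4, at least 2-fold lower, against 15.7% and 18.1% of all genes.

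**Figure D1:**
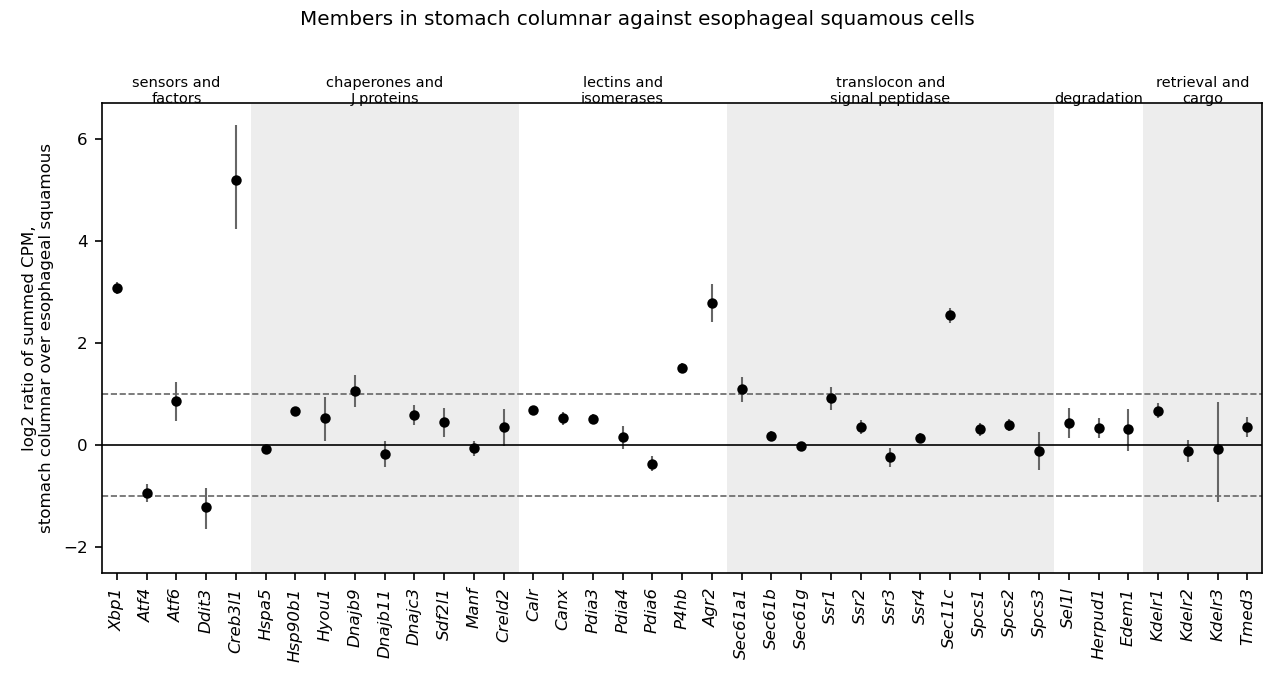
Fold of each of the 39 members, stomach columnar over esophageal squamous cells, on a log2 axis with 95% counting intervals, grouped by role. Dashed lines mark 2-fold. Creb3l1, Xbp1, Agr2 and Sec11c lie highest, and Ddit3 is the one member below the lower line.

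The regulators of the response differed in opposite directions, with Xbp1 and Creb3l1 higher and Atf4 and Ddit3 lower in stomach columnar cells. Xbp1 (chr11:5520659-5525893, + strand), the transcription factor activated by IRE1, stood at 515 CPM in stomach columnar cells and 60.7 CPM in esophageal squamous cells, 8.47-fold higher (7.81 to 9.19). In single cells with at least 10000 UMIs, its lowest, median and highest levels were 49.7, 470.2 and 1197 CPM in 44 stomach cells and 0, 42.7 and 461 CPM in 433 squamous cells. The interquartile ranges of the 2 groups were apart, although their extremes overlapped. At an even depth of 10000 UMIs, 92.8% of the stomach cells and 40.3% of the squamous cells held an Xbp1 UMI. Reads from the 3′ end cannot separate spliced from unspliced Xbp1, so these are levels of both forms.

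Creb3l1, also called OASIS, is an ER-bound transcription factor of the ATF6 type found in secretory cells. It had 54 UMIs (21.9 CPM) in stomach cells and 11 UMIs (0.60 CPM) in squamous cells, 36.7-fold higher with a wide interval of 19.0 to 77.8. The squamous level was 2.73% of the stomach level, near the keratin background. UMIs of Creb3l1 were seen in 56.5% of stomach and 1.42% of squamous cells, at unequal depth, and in 19.1% of stomach and 0.36% of squamous cells at 10000 UMIs per cell.

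The genes of the PERK arm lay the other way. Ddit3, which encodes the pro-apoptotic factor CHOP, stood at 22.7 CPM in stomach cells and 52.9 CPM in squamous cells, a fold of 0.43 (0.32 to 0.56). Atf4, the factor upstream of Ddit3, stood at 114 CPM in stomach and 218 CPM in squamous cells, a fold of 0.52 (0.46 to 0.59), and is known to be controlled largely at translation, which mRNA counts do not show. In single deep cells Ddit3 had a lowest, median and highest level of 0, 13.8 and 121 CPM in the stomach and 0, 29.2 and 749 CPM in the esophagus, so the cells of both groups overlapped widely. Atf6, the Golgi-cleaved sensor, was read at 29.6 CPM in stomach cells and 16.3 CPM in squamous cells, 1.82-fold (1.39 to 2.36).

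**Figure D2:**
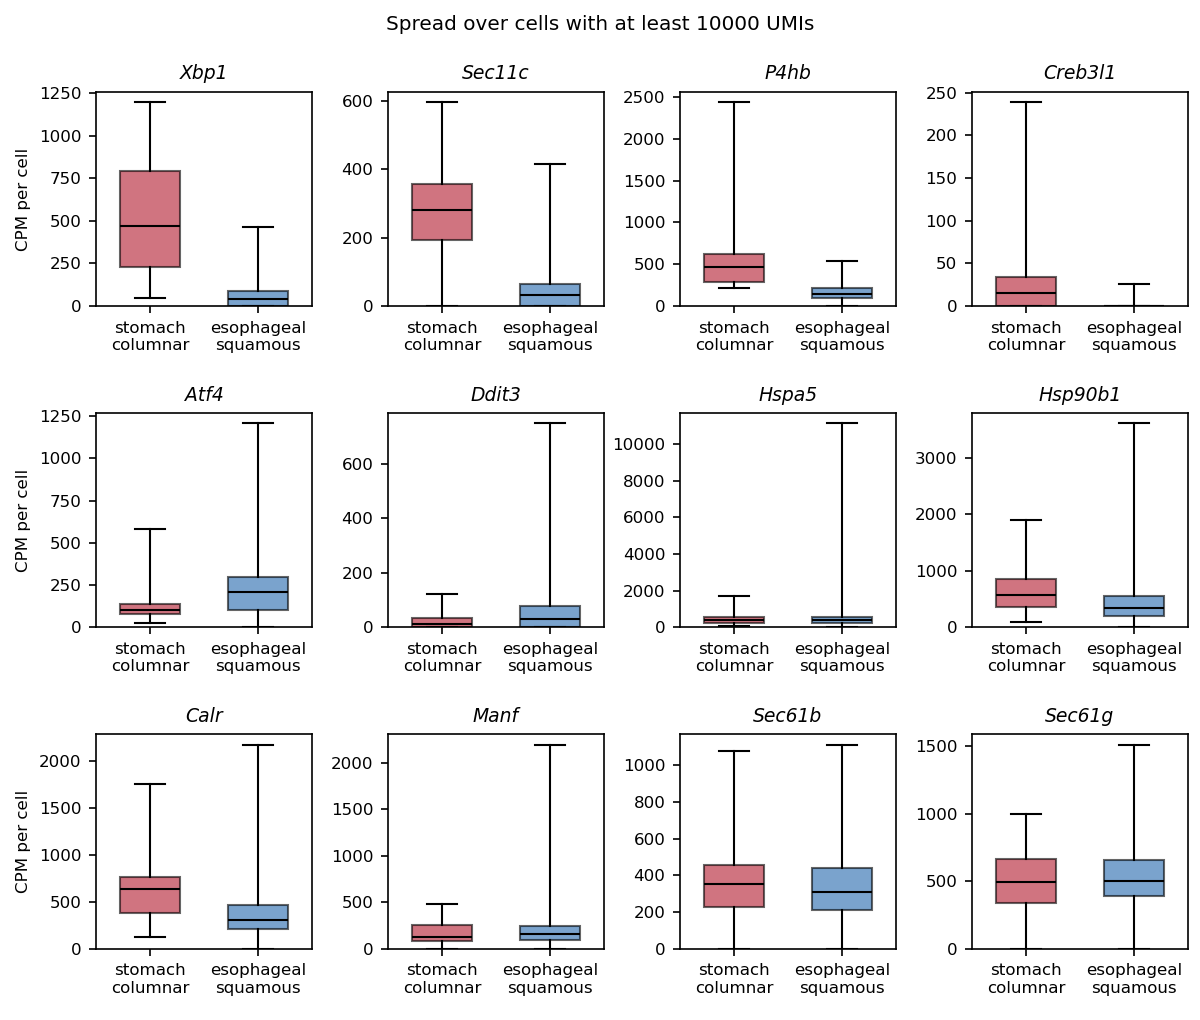
Level in CPM of selected members in single cells with at least 10000 UMIs, 44 stomach columnar cells at the left of each panel and 433 esophageal squamous cells at the right, with boxes for the interquartile range, lines for the median and whiskers to the lowest and highest cell. Xbp1, P4hb and Sec11c have interquartile ranges that lie apart, whereas Hspa5, Atf4 and Ddit3 overlap.

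The HSP-type chaperones, their J-protein partners and the other folding factors grouped with them differed little. Hspa5, the ER HSP70 also known as BiP and the usual readout of the UPR, stood at 466 CPM in stomach cells and 494 CPM in squamous cells, a fold of 0.94 (0.89 to 1.00). Its single-cell median was 376 CPM in the stomach and 405 CPM in the esophagus, but its highest squamous cell reached 11125 CPM against 1714 CPM for the highest stomach cell. Hsp90b1, the ER HSP90 GRP94, was higher in the stomach at 664 CPM against 420 CPM in the esophagus, 1.58-fold. Dnajb9, the J protein ERdj4, was the 1 member of the 9 past 2-fold, with 45.0 CPM in stomach and 21.5 CPM in squamous cells, 2.09-fold (1.68 to 2.59). Its interval includes 2. The folds of the other 6, Hyou1, Dnajb11, Dnajc3, Sdf2l1, Manf and Creld2, lay between 0.89 (Dnajb11) and 1.51 (Dnajc3), and the 9 genes summed to 1624 CPM in the stomach and 1339 CPM in the esophagus.

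Lectin chaperones and disulfide isomerases summed to 2009 CPM in stomach cells and 1282 CPM in squamous cells. P4hb, the founding protein disulfide isomerase (PDI), stood at 476 CPM in stomach and 167 CPM in squamous cells, 2.85-fold higher (2.66 to 3.04). Its lowest, median and highest levels in deep cells were 209.5, 468 and 2439 CPM in the stomach against 0, 148 and 534 CPM in the esophagus. Every deep stomach cell thus lay above the median squamous cell. Calr, the calcium-binding lectin calreticulin, stood at 617 CPM in stomach and 384 CPM in squamous cells, 1.61-fold (1.52 to 1.70). Its membrane-bound counterpart Canx stood at 222 CPM in stomach and 154 CPM in squamous cells, 1.44-fold (1.31 to 1.58).

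The other isomerases did not move together with P4hb. Pdia3, the partner of both lectins, had a fold of 1.42 (1.33 to 1.52) and Pdia4 one of 1.11 (0.96 to 1.29). Pdia6 lay on the side of the esophagus, with 172 CPM in stomach and 221 CPM in squamous cells, a fold of 0.78 (0.70 to 0.86). The 7 ERSE holders printed above spanned folds of 0.78 (Pdia6) to 1.61 (Calr). None of them passed 2-fold, against 18.7% of all genes higher and 14.8% lower. With 7 genes this is a description and no result about the element.

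Agr2, an isomerase of mucus-producing cells, showed 49.4 CPM in stomach cells and 7.15 CPM in squamous cells, but these values rest on single cells. In the stomach 105 of its 122 UMIs came from 1 cell, and in the esophagus 78 of 132 came from 1 cell. With the richest cell of each group left out, Agr2 stood at 6.96 CPM in stomach and 2.93 CPM in squamous cells. It was seen in 6 of 46 stomach cells and 53 of 702 squamous cells.

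Among the genes of entry into the ER, 1 subunit of signal peptidase stood apart from its partners. Sec11c, a catalytic subunit of the peptidase, was at 286 CPM in stomach columnar cells and 49.0 CPM in esophageal squamous cells, 5.83-fold higher (5.27 to 6.44). Deep cells ran at 0, 280 and 598 CPM (lowest, median, highest) in the stomach and at 0, 32.8 and 417 CPM in the esophagus. The interquartile ranges did not overlap, and 85.7% of stomach and 33.7% of squamous cells held a Sec11c UMI at even depth. The other catalytic subunit, Sec11a, stood at 123 CPM in stomach and 129 CPM in squamous cells, a fold of 0.95 (0.84 to 1.07). The difference is thus one of Sec11c and not of both catalytic subunits. The non-catalytic subunits Spcs1, Spcs2 and Spcs3 had folds of 1.25, 1.31 and 0.93.

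Sec61a1, the pore-forming subunit of the translocon, stood at 74.5 CPM in stomach and 34.8 CPM in squamous cells, 2.14-fold higher (1.81 to 2.53), with an interval that includes 2. Its small partners Sec61b and Sec61g had folds of 1.13 (1.06 to 1.21) and 0.99 (0.93 to 1.04). Subunits of the translocon-associated protein complex spread as widely, with Ssr1 at 1.90, Ssr2 at 1.28, Ssr3 at 0.85 and Ssr4 at 1.10. Subunits of 1 complex therefore did not share 1 ratio between the groups.

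ER-associated degradation and retrieval showed no member past 2-fold. Sel1l, the adaptor of the HRD1 ubiquitin ligase, Herpud1, a component of the same complex, and Edem1, which trims mannose on misfolded glycoproteins, had folds of 1.36, 1.26 and 1.24 and summed to 172 CPM in stomach and 134 CPM in squamous cells. Of the KDEL receptors, Kdelr1 stood at 191 CPM in stomach and 119 CPM in squamous cells (1.60-fold), whereas Kdelr2 had a fold of 0.93. Kdelr3 was read from 11 stomach and 86 squamous UMIs, a fold of 0.96 (0.46 to 1.80), too few to place. Tmed3, a cargo receptor of the p24 family, had a fold of 1.28.

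Because few stomach cells were measured, the share of each gene that came from its richest cell was set beside the levels. In the stomach the richest cell held a median of 6.5% of a member's UMIs, with a range of 4.86% (Calr) to 86.1% (Agr2), and 9 members passed 10%. The largest stomach cell held 3.15% of all UMIs. In the esophagus the median was 1.39%, with a range of 0.69% (Pdia3) to 59.1% (Agr2), and Agr2 and Creb3l1 alone passed 10%. The largest squamous cell held 0.43% of all UMIs. For Xbp1, P4hb and Sec11c the richest stomach cell held 5.74%, 5.19% and 5.39%. Leaving the richest cell of each group out gave 500.2 CPM in stomach against 60.0 CPM in squamous cells for Xbp1, 462 CPM in stomach against 166 CPM in squamous cells for P4hb and 277 CPM in stomach against 48.0 CPM in squamous cells for Sec11c. Atf4 had 14.9% in 1 stomach cell, and without it stood at 100.1 CPM in stomach and 216 CPM in squamous cells.

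**Figure D3:**
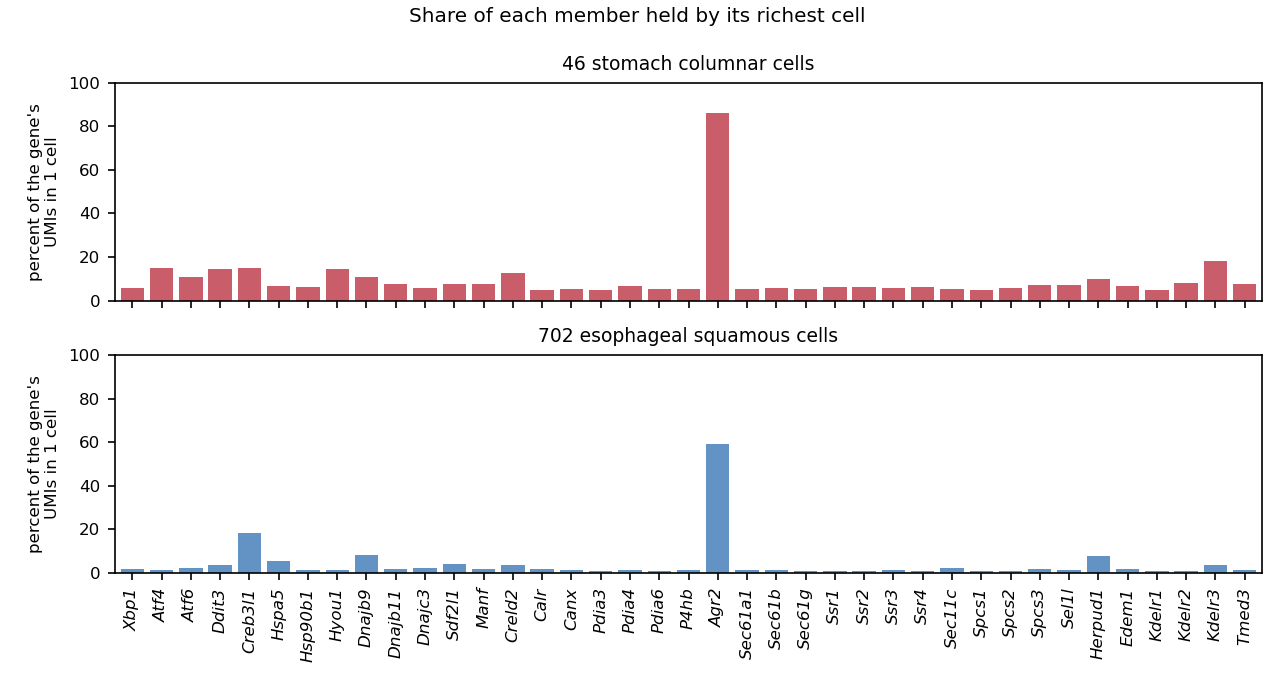
Share of each member's UMIs held by its richest cell, in percent, for 46 stomach columnar cells (top) and 702 esophageal squamous cells (bottom). Agr2 stands out in both, at 86.1% in the stomach and 59.1% in the esophagus.

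Further genes of the same pathways were taken from lists drawn up with earlier results of these data known. The 18 genes of the PERK and ATF4 list, which hold stress regulators and genes of amino acid supply, summed to 1036 CPM in stomach cells and 2628 CPM in squamous cells, with a median log2 fold of −1.48. At least 2-fold lower in the stomach were 10 of the 18, against 14.8% of all genes, and 1, Atf3, was at least 2-fold higher. Chac1, which degrades glutathione, had 2 UMIs (0.81 CPM) in stomach cells and 309 (16.7 CPM) in squamous cells, a fold of 0.048 (0.0058 to 0.18). Trib3, a pseudokinase target of CHOP, stood at 2.43 CPM in stomach and 42.0 CPM in squamous cells, a fold of 0.058 (0.021 to 0.13). Asns, asparagine synthetase, stood at 24.3 CPM in stomach and 238 CPM in squamous cells, a fold of 0.10 (0.078 to 0.13).

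The other 7 lower genes, given after their values were seen, were the amino acid transporter subunits Slc7a11 and Slc3a2, the serine and one-carbon enzymes Phgdh, Psat1, Shmt2 and Mthfd2, and the stress gene Ddit4, with folds from 0.13 (Slc7a11) to 0.42 (Ddit4). Atf3, a stress-induced partner of ATF4, ran against the list at 159 CPM in stomach and 74.7 CPM in squamous cells, 2.13-fold. The gene of PERK itself, Eif2ak3, stood at 6.48 CPM in stomach and 3.79 CPM in squamous cells, with an interval of 0.93 to 2.97 for its fold. Most of the list thus lay on the side of Atf4 and Ddit3, while the gene of its kinase and Atf3 did not. Amino acids and reducing agents in the 2 media were not measured, and the part of the medium was not tested.

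**Figure D4:**
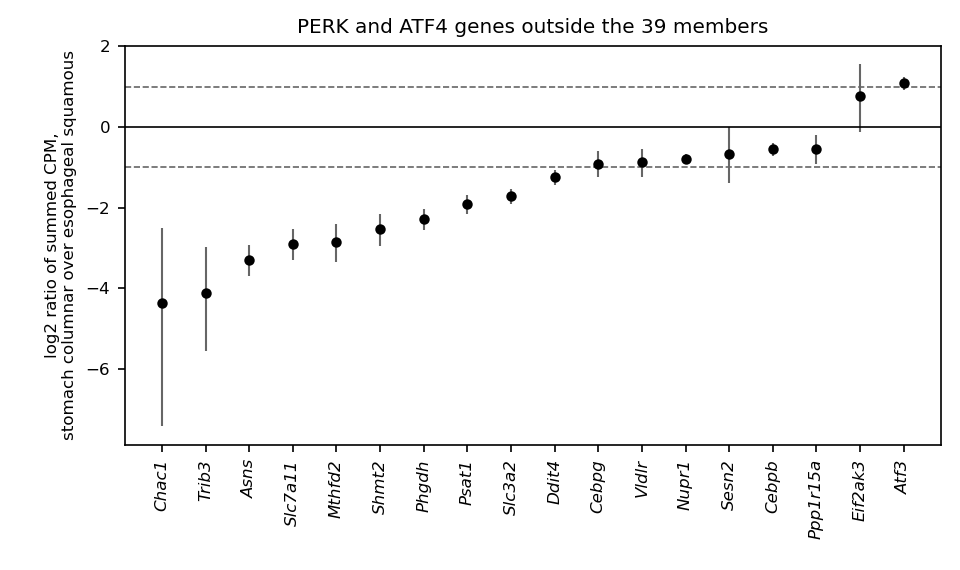
Fold of the 18 PERK and ATF4 list genes, stomach columnar over esophageal squamous cells, on a log2 axis with 95% counting intervals. Of the 18, 10 lie below the lower dashed line at 2-fold, Chac1 and Trib3 farthest, and Atf3 alone lies above the upper one.

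Lists of the secretory machinery leaned the other way, mostly within 2-fold. Of the IRE1 and secretory factors 3 of 7 measured genes were at least 2-fold higher in the stomach, of which Creb3l2, a relative of Creb3l1, stood at 25.5 CPM in stomach and 6.29 CPM in squamous cells (4.06-fold). Ern1, the gene of the IRE1 kinase, had a fold of 0.96 (0.61 to 1.44), and all 9 stomach UMIs of its epithelial relative Ern2 came from 1 cell. Oligosaccharyl transferase and N-glycan genes had 1 of 16 past 2-fold, the subunit Dad1 with 613 CPM in stomach and 259 CPM in squamous cells (2.37-fold), and a median log2 fold of 0.49. The other translocon genes had 2 of 20, Sec63 (2.37-fold) and Tram1 (2.04-fold), with a median of 0.13.

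Other degradation genes had 4 of 18 at least 2-fold higher, Os9, Erlec1, Edem3 and Sel1l3, with a median log2 fold of 0.40. Of these, the lectin Erlec1 stood at 106 CPM in stomach and 34.7 CPM in squamous cells. Vesicle coat and cargo genes had 5 of 36, with a median of 0.37. Redox enzymes had 2 higher, Fkbp11 and Ero1lb, and 1 lower, Selenom, of 19, with a median of 0.16. Heat shock chaperones outside the ER, which answer to a different stress response, had 0 of 18 higher, with a median of −0.32. The 2 lower were Hspb1 (42.5 CPM in stomach, 283 CPM in squamous cells) and the mitochondrial Hspe1. Of these lists, only the IRE1 factors and the degradation genes had a larger share at least 2-fold higher than the 18.7% of all genes. Both shares rest on few genes. Os9 was at 2.01-fold with an interval of 1.75 to 2.31, and Creb3l4 had 6 stomach UMIs and an interval of 1.15 to 10.8.

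Within the esophagus, clustering of the 702 squamous cells gave 6 groups. Cells of a G2/M-like cluster (169 cells), a basal-like cluster (132 cells) and a differentiated-like cluster (77 cells) were named from marker lists, and a cluster of 52 cells was led by Inhba, Csf3 and Tnc. Clusters of 145 and 127 cells had medians of 1468 and 2611 UMIs, against 23460 over all squamous cells, and stay unnamed. The smaller of them, led by Sprr2f, Psca and Clca3b, had 15 of 17 differentiation markers higher. The larger, here called the low-UMI cluster, was led by the gastric genes Tff1, Tff2, Gkn3 and Krt8. Without the low-UMI cluster, the same 7 members were at least 2-fold higher and the same 1 at least 2-fold lower in stomach columnar cells, and likewise without both.

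The members summed to 6878 CPM in the Sprr2f-led cluster and 6632 CPM in the Inhba-led cluster, followed by 5492 CPM in differentiated-like, 5143 CPM in basal-like, 5129 CPM in G2/M-like and 4992 CPM in low-UMI cells. The counting intervals of the basal-like, G2/M-like and low-UMI sums overlapped. When each cell counted equally, the Inhba-led cluster came first. The Inhba-led cluster had the highest level of 18 members and the Sprr2f-led cluster of 14. No such count over all genes is given, so these counts are a description only. Only 2 of 39 members (5.13%), Creb3l1 and Kdelr3, were at least 2-fold higher in Inhba-led cells than in the other squamous cells, against 6.73% of all genes, and both rest on few UMIs. The members of the Inhba-led cluster were thus broadly but slightly higher, with a median log2 fold of 0.28 against 0.11 over all genes. Sec61b, for example, stood at 443 CPM in it against 333 CPM over all squamous cells, and Spcs3 at 50.1 CPM in it against 30.9 CPM over all squamous cells.

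Xbp1 followed the squamous states in its own way. It stood at 36.2 CPM in G2/M-like cells, against 79.0 CPM in all other squamous cells. Its level was 54.8 CPM in basal-like, 68.4 CPM in Inhba-led, 101 CPM in differentiated-like and 118 CPM in Sprr2f-led cells. The low-UMI cluster had 82.9 CPM, from 53 UMIs. The highest squamous cluster still lay below the 515 CPM of stomach columnar cells. Sec11c ran from 36.5 CPM in basal-like to 104 CPM in Sprr2f-led cells, and P4hb only from 132 CPM in Sprr2f-led to 206 CPM in Inhba-led cells. Atf4 was highest in differentiated-like cells at 270.0 CPM, where the PERK and ATF4 list also had its highest sum of 3005 CPM, and lowest in Sprr2f-led cells at 134 CPM, where the list had its lowest sum of 2004 CPM.

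**Figure D5:**
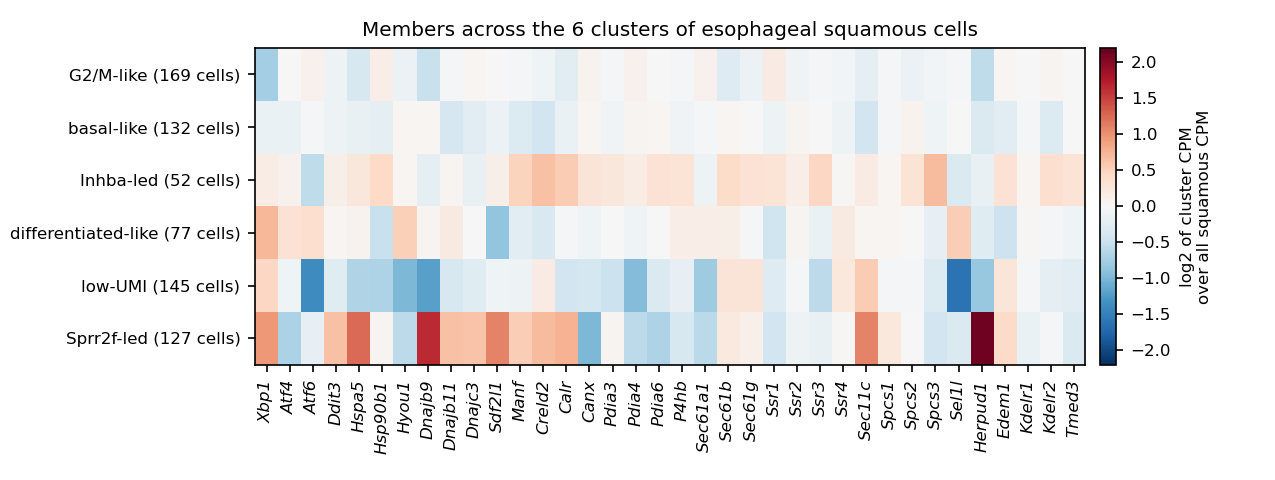
Log2 of the level of each member in a squamous cluster over its level in all squamous cells, as colour, for 6 clusters (rows) and 36 members (columns), without Creb3l1, Agr2 and Kdelr3, which lie under 10 CPM. Herpud1, Dnajb9, Hspa5, Sdf2l1, Sec11c and Xbp1 are high in the Sprr2f-led cluster, Hspa5, Dnajb9 and Sdf2l1 mostly through 3 of its cells, and most members are slightly high in the Inhba-led cluster.

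The Sprr2f-led cluster had 6 of 39 members (15.4%) at least 2-fold higher than the other squamous cells, against 9.36% of all genes, and 1, Canx (0.48-fold), at least 2-fold lower, against 32.7% of all genes. The 6 were Herpud1 (358 CPM, 5.89-fold), Dnajb9 (67.0 CPM, 3.68-fold), Hspa5 (1177 CPM, 2.65-fold), Sdf2l1 (2.33-fold), Sec11c (104 CPM, 2.32-fold) and Xbp1 (118 CPM, 2.09-fold). These sums are led by the deep cells, since 27 of the 127 cells had at least 10000 UMIs and held 77.4% of the UMIs. With each cell counted equally, the mean levels were 182 CPM (Herpud1), 41.9 CPM (Dnajb9), 654 CPM (Hspa5), 47.1 CPM (Sdf2l1), 96.2 CPM (Sec11c) and 133 CPM (Xbp1). The members were left out of the genes that formed the clusters. Other genes of the same cells formed them, so these values describe the cluster and are no test.

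Much of this rested on 3 cells. They carried 25461 to 49845 UMIs each and held 8.39% of the UMIs of the cluster, but 497, 333 and 124 Hspa5 UMIs, together 954 of 1476 (64.6%). The same cells held 114, 72 and 35 Herpud1 UMIs, 49.2% of the 449 in the cluster. Without them Hspa5 stood at 454 CPM in the cluster and 444 CPM in the other squamous cells, a fold of 1.02 (0.94 to 1.12). Herpud1 stayed higher at 198 CPM (3.26-fold, 2.82 to 3.77), as did Sec11c at 106 CPM (2.36-fold) and Xbp1 at 111 CPM (1.95-fold). Dnajb9 stood at 34.0 CPM without them (1.87-fold, 1.30 to 2.61), and Sdf2l1 at 39.2 CPM (1.22-fold, 0.88 to 1.65). The 3 cells held 53.6% of the Dnajb9 UMIs and 52.1% of the Sdf2l1 UMIs of the cluster. These 3 cells were picked for their Hspa5 counts, which are given as a description. Ddit3 had 2, 3 and 3 UMIs in them, while 34 Ddit3 UMIs came from another cell of the cluster that had 54 Hspa5 UMIs. Of the 124 cells of the cluster outside the 3, 42 held no Hspa5 UMI.

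In the stomach, 16 columnar cells formed a cluster with high Gkn3, 22 a cluster with high Psca, and 8 a further cluster. Gkn3 stood at 1327 CPM in Gkn3-high and 53.9 CPM in Psca-high cells, and Psca at 302 CPM in Gkn3-high and 1542 CPM in Psca-high cells. Gkn3 is known from mucous neck cells of mouse stomach glands. It was seen in 16 of 16 Gkn3-high cells, but 1 of them held 38.0% of its UMIs. Of the other neck and gland markers higher in this cluster, the richest cell held 17.4% for Aqp5 and 84.6% for Tff2. It held 100% for Pgc and Muc6. The members summed to 8156 CPM in Gkn3-high cells and 6437 CPM in Psca-high cells. Of the 39, 30 were higher in Gkn3-high cells (76.9%, against 62.4% of 9096 genes) and 9 were lower. Their median log2 fold was 0.27, close to the 0.25 of all genes, so the members as a set differed little from the rest. Agr2 is among the higher with 126 CPM in Gkn3-high and 0 CPM in Psca-high cells, most of it from 1 cell. Xbp1 stood at 644 CPM in Gkn3-high and 328 CPM in Psca-high cells (1.96-fold), with UMIs in 16 of 16 Gkn3-high and 21 of 22 Psca-high cells. The cofactor of BiP Sdf2l1 stood at 61.1 CPM in Gkn3-high and 21.8 CPM in Psca-high cells (2.81-fold), and Sec11c at 341 CPM in Gkn3-high and 218 CPM in Psca-high cells (1.57-fold).

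P4hb ran against this order, with 377 CPM in Gkn3-high cells and 592 CPM in Psca-high cells, a fold of 0.64, and so did Ddit3, at 13.5 CPM in Gkn3-high and 35.2 CPM in Psca-high cells, a fold of 0.38. Dnajb9 and Atf4 were the other members with a counting interval below 1. Xbp1 and P4hb, both higher in the stomach than in the esophagus, thus differed in which stomach cells held more of them. In both clusters Xbp1, P4hb and Sec11c lay above their level in every squamous cluster. Of 14 G2/M markers 11 were higher in Gkn3-high cells, and their part in these values was not tested.

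Members varied together from cell to cell, which is given as a description because cells of 1 library share depth and handling. Over 44 stomach cells, the 190 pairs of 20 members with a median of at least 5 UMIs had a median Spearman rho of 0.35, against 0.089 for all genes of that abundance. A rho over 0.5 was found for 27.4% of member pairs and 4.37% of all pairs. The closest were Calr with Hsp90b1 (0.77), Sec61b with Sec61g (0.75), Pdia3 with Hsp90b1 (0.74) and Hspa5 with Manf (0.72). P4hb (median rho with the other members −0.08) and Atf4 (−0.16) varied apart from the rest. Their rho with depth was −0.39 and −0.28, and with the mitochondrial share 0.34 and 0.34. For Sec61b and Sec61g these were 0.42 and 0.43 with depth, and −0.41 and −0.53 with the mitochondrial share. Calr and Hsp90b1 had 0.013 and −0.00056 with depth. The part of depth and mitochondrial share in these pairs was not tested. Over 433 squamous cells, the pairs of 15 members had a median rho of 0.22 against 0.060 for all genes, with a rho over 0.5 for 0.952% of member pairs against 1.01% of all pairs.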

How the data were processed

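Mouse organoid cells carried MULTI-seq sample tags, lipid-anchored DNA barcodes, and were sequenced with 10x 3′ chemistry. The authors deposited a matrix of raw counts, UMIs by gene and barcode without normalization, from Cell Ranger 3.1.0 with build mm10 as the submitters' processing notes list them. Tag counts and the sample call of each barcode, made by the authors with deMULTIplex, were deposited beside them. Members and gene lists were chosen with earlier results of these data known.

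Kept cells had between 100 and 8500 genes, no more than 80000 UMIs and a mitochondrial share of no more than 20%, limits that the methods state for tissue cells, which left 90 stomach and 765 esophageal cells. Of the UMIs of 6 keratins, cells with at least 0.75 from Krt5, Krt14, Krt6a and Krt13 were called squamous and those with at most 0.25 columnar, given at least 5 keratin UMIs. No doublet caller was run. Doublets between the tags were addressed by the authors' demultiplexing, after which mixed cells remained, and cells with keratins of both types were left out, as the methods also describe. UMIs were summed over cells and divided by the group total to give CPM, so depth sets the intervals. Sums have exact Poisson (Garwood) intervals and ratios and shares exact binomial (Clopper-Pearson) intervals, at 95%. The limit for a gene at 0 was 3 counts over the group, and such genes entered counts and medians at that bound.

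Clusters were formed per sample with scanpy 1.11.5 (2000 variable genes, 20 components, resolution 0.6). Members, the further lists, and mitochondrial and ribosomal protein genes were left out of the variable genes. TMM factors came from edgeR 4.0.16. All members are named, with up to 3 genes of each further list, those with the largest absolute log2 fold among genes of at least 10 CPM in a group and an interval that leaves out 1. Other genes were named after their values were seen. Alternatives covered cell filters, the keratin call, scaling, minimum counts, tag purity, cluster resolution and the richest cell. The computation was tested on simulated data. Gene positions came from GENCODE. Promoters came from RefSeq on GRCm38.p6, the assembly of mm10, and 30 of 39 members had a promoter in the table.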

Additional observations from a re-analysis of the deposited data

Results flagged for a closer look

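Columnar cells were also found under the esophageal tag, outside the comparison above. Of the 39 members, 27 were higher in them than in the esophageal squamous cells, 6 at least 2-fold. For 5 of these, given here, the counting interval of the fold lay above 2. No share over all genes is given for these cells, so the counts are not read as a result about the members. These 24 cells had a median of 38022 UMIs, and their own tag made up a median of 63.3% of both tags, with 0 cells at 90% or more. Xbp1 stood at 400.2 CPM in them (6.59-fold over squamous cells), Sec11c at 323 CPM against 49.0 CPM in squamous cells and P4hb at 400.2 CPM (2.39-fold). Agr2 stood at 122 CPM, against 7.15 CPM in squamous cells, and Creb3l1 at 12.1 CPM (20.2-fold, from few UMIs). The share of Agr2 in its richest cell was not computed here, and its counting interval does not cover this. In the compared stomach and squamous cells that share was 86.1% and 59.1%. The tissue these cells came from was not tested.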

How the results depend on the processing

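Xbp1, Creb3l1, P4hb and Sec11c were at least 2-fold higher and Ddit3 at least 2-fold lower in stomach columnar cells in all 11 alternatives to the cell filters, keratin call, scaling and weighting, with log2 folds of 2.46 to 3.13, 4.02 to 5.43, 1.32 to 1.80, 1.91 to 2.61 and −1.55 to −1.07. With own tag at least 90%, Creb3l1 had 6 stomach and 3 squamous UMIs, under the minimum of 10, and was not counted among the members called. Sec61a1 and Agr2 stayed at least 2-fold higher in 9 and Dnajb9 in 7. The number of members at least 2-fold lower was 2 in place of 1 with no upper UMI limit, TMM, median-ratio scaling, the richest cell left out, own tag at least 90% and cells over the UMI limit only, and 3 (Ddit3, Agr2 and Kdelr3) under a stricter keratin call. The median log2 fold was 0.14 with own tag at least 90%, which left 8 stomach and 168 squamous cells. The log2 fold of the sum, 0.45 as reported, was 0.52 with no upper limit, 0.42 with no keratin call, with at most 10% mitochondrial UMIs and with the richest cell left out, 0.27 with TMM, 0.28 with median-ratio scaling, 0.29 with own tag at least 90%, 0.56 in cells over the limit only and 0.48 without the low-UMI and Sprr2f-led clusters. Of the members at least 2-fold apart, the sign changed for Dnajb9 (−0.18, own tag at least 90%) and Agr2 (−1.35 under the stricter keratin call, −0.89 with own tag at least 90%, a bound from 0 stomach UMIs, and −0.52 in cells over the limit). Of those within 2-fold, 15 changed sign in at least 1 alternative, and with own tag at least 90%, 31 of 39 members kept their sign. The log2 ratio of the highest to the lowest squamous cluster, 0.46 as reported, was 0.54 at resolution 1, 0.37 with cells weighted equally and 0.41 without the 3 Hspa5-rich cells. The causes were not tested. Settings on over-limit cells, left-out clusters and the 3 left-out cells were chosen after seeing the data. No paired analysis was possible because each group is 1 sample. Depth limits Creb3l1, Kdelr3 and Agr2, which rest on few UMIs or cells.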

Other observations

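The stomach sample also held 41 columnar cells over the limit of 80000 UMIs, with a median of 122552 UMIs, which may include doublets. In them Xbp1 stood at 364 CPM (5.99-fold over the esophageal squamous cells), Sec11c at 290.0 CPM (5.92-fold) and Creb3l1 at 14.4 CPM (24.2-fold). P4hb (2.85-fold) and Sec61a1 (2.13-fold) were also at least 2-fold higher, as were Sdf2l1 (2.52-fold) and Ssr1 (2.05-fold). Dnajb9 was at 1.15-fold and Agr2 at 0.70-fold. Ddit3 (0.29-fold) and Atf4 (0.48-fold) were lower.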
